A study of Mus musculus with 8 samples.

Results

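The liver makes most of the circulating proteins of the complement and coagulation cascades, and the 44 genes described here encode them: 23 complement components and regulators and 21 factors, inhibitors and enzymes of clotting and fibrinolysis. They were chosen as a list of symbols, each matched through its Ensembl identifier to the mouse annotation on GRCm38, and all 44 were found among the 52636 genes of the deposited count tables. The samples were livers of 8 male wild-type C57BL/6J mice, sequenced as 1 mRNA library per mouse. Mice received an adeno-associated virus of serotype AAV8 at 7 weeks of age, in which the hepatocyte-specific TBG promoter drove either GFP (mice 303, 311, 314 and 315) or human AGXT (mice 308, 309, 316 and 319). AGXT is alanine-glyoxylate aminotransferase, the liver enzyme that turns glyoxylate into glycine and so keeps it from becoming oxalate. From 8 weeks of age all mice ate a steatohepatitis (MASH) diet rich in fat, cholesterol and fructose for 24 weeks. All groups therefore carry both a virus and the diet, and no group on a normal diet was analysed here, so the values compare 4 mice overexpressing AGXT with 4 GFP controls under disease conditions only.

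Complement and coagulation are cascades of plasma proteases that hepatocytes secrete as inactive precursors. Complement starts from antibody-bound C1q, from mannose-binding lectin on microbial sugars, or from the spontaneous turnover of C3 that factor B and factor D amplify. All routes cleave C3 and end in the membrane attack complex built from C5 (gene Hc) to C9. Clotting starts from tissue factor with factor VII or from the contact system, and both arms converge on factor X and thrombin (gene F2), which turns fibrinogen into fibrin. Antithrombin, heparin cofactor II and protein C hold the cascade back, and plasmin, made from plasminogen, dissolves the clot. Several of these genes are acute-phase genes, whose transcription in hepatocytes responds to cytokines, whereas C1q is made mainly by macrophages.

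The libraries held 17095433 to 28780140 read pairs assigned to genes. Levels are given as CPM, counts scaled to library size and by trimmed-mean factors (TMM), and differences are log2 fold changes of AAV8-AGXT over AAV8-GFP with the adjusted p (Benjamini-Hochberg over 15248 genes) of edgeR's quasi-likelihood test. TMM factors were 1.02 to 1.14 in AAV8-GFP mice and 0.83 to 1.00 in AAV8-AGXT mice, so scaling by total counts instead shifted the median of all genes from 0.018 to -0.22. Mouse Agxt stood at 148, 180, 153 and 175 CPM in AAV8-GFP mice and at 405, 201, 243 and 371 CPM in AAV8-AGXT mice, with a log2 fold change of 0.90 (edgeR's quasi-likelihood test, adjusted p = 0.0489). The human transgene is not in the mouse annotation, and whether its reads were counted on the mouse gene was not tested. The 10 hepatocyte markers summed to 58846 to 69788 CPM in AAV8-GFP and 72710 to 103526 CPM in AAV8-AGXT livers. All 10 had positive fold changes (median 0.42), of which 9 stayed so under total counts (median 0.17), and 2 of them, Hpd and Cps1, passed the test. Mouse 308 stood apart, with the smallest share of read pairs on genes (56.3%) and the smallest sum of macrophage markers (190 CPM).

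Mice overexpressing AGXT had higher transcript levels of 4 of the 44 genes: F11 (factor XI), F7 (factor VII), Cfd (factor D) and C8b (the beta chain of C8). No member was lower by edgeR's quasi-likelihood test at an adjusted p of 0.05, nor by the DESeq2 alternative, and at an unadjusted p of 0.05 1 member was lower (C1qa) and 15 were higher. The 4 calls made up 9.09% of the members, beside 4.35% of all genes called in either direction, 2.45% called higher and 1.9% called lower. Of the 44 fold changes, 36 were positive (81.8%), beside 52.3% over all genes tested, and the median was 0.31 beside 0.018. A positive sign was not particular to the members. All 10 hepatocyte markers (median 0.42) and all 12 hepatocyte transcription factors outside the members (median 0.45) had it too. At an unadjusted p of 0.05, 16 members passed (36.4%), beside 26.2% of all genes. In 9 members the mice of both groups did not overlap, always with AAV8-AGXT higher (C1ra, Masp1, Cfd, C8b, F11, F2, F7, F13b and Proz). That is 20.5% of the members, beside 16.6% of all genes in either direction, 8.93% higher and 7.63% lower. Under scaling by total counts 27 members stayed positive and the members' median was 0.065, whereas its distance from the median of all genes was 0.28 beside 0.29 with TMM. With TMM but without mouse 319 that distance was 0.16.

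**Figure D1:**
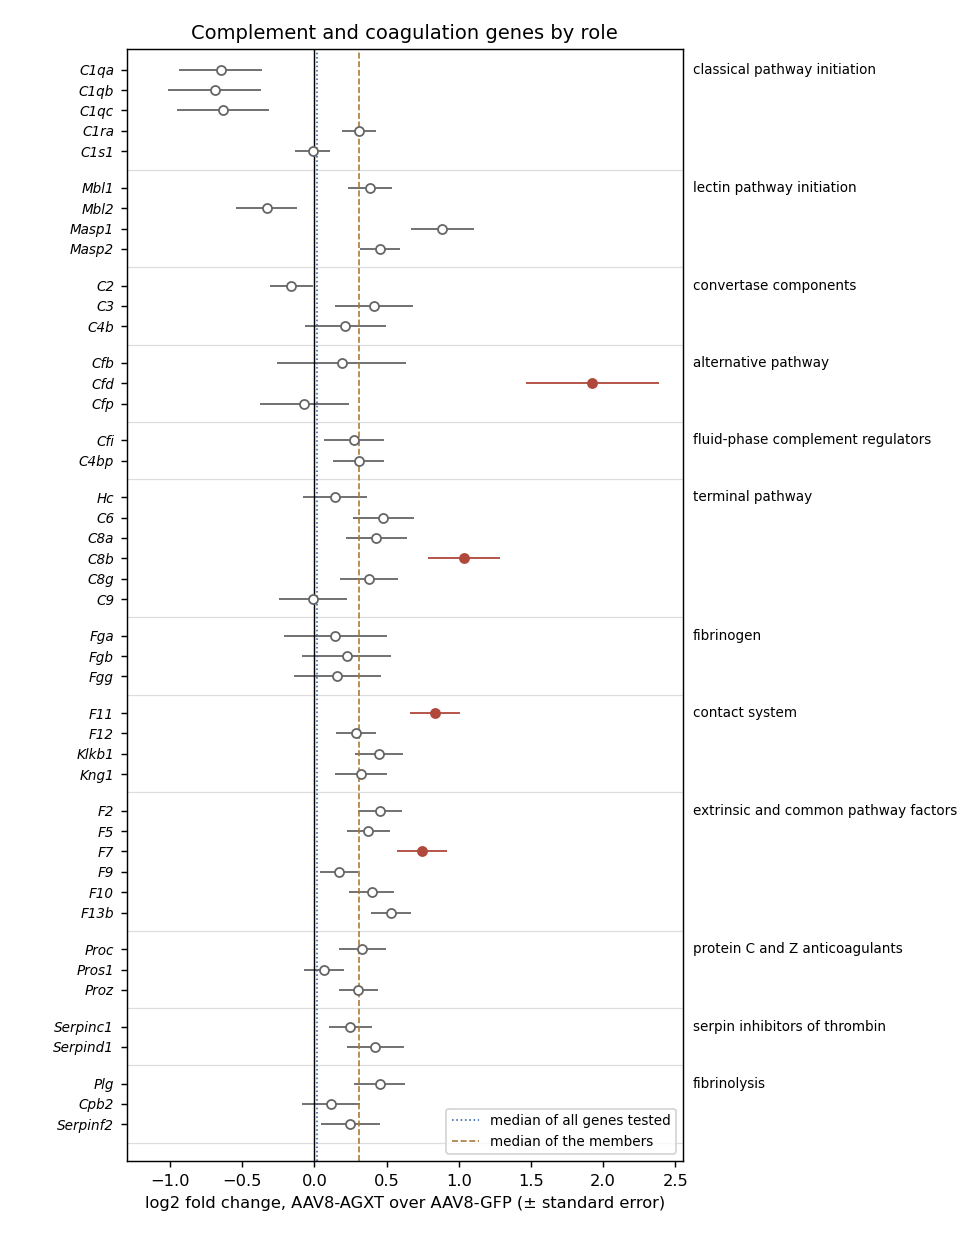
Log2 fold change of AAV8-AGXT over AAV8-GFP (points, with standard errors as bars) for each of the 44 genes, grouped by role, with filled red points for an adjusted p under 0.05 and vertical lines for the medians of the members and of all genes tested. The 4 called genes lie between 0.75 and 1.93, the C1q genes lie lowest (-0.63 to -0.69), and 27 rather than 36 of the points lie right of 0 when counts are scaled by their totals.

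The alternative pathway held the gene with the largest fold change of the list. Cfd encodes factor D (adipsin), the serine protease that cleaves factor B when it is bound to C3b and is known for its high expression in fat cells. Cfd (ENSMUSG00000061780, chr10:79890853-79892655, plus strand) was measured at 72.6, 28.5, 20.5 and 18.1 CPM in AAV8-GFP mice and at 143, 110, 74.0 and 204 CPM in AAV8-AGXT mice. Mouse 303 was the highest of the controls and came close to mouse 316, the lowest of the AGXT mice, without overlap. Cfd rose 3.80-fold, from 34.9 ± 25.5 to 133 ± 55.3 CPM (± SD of 4 mice), with 1.93 ± 0.46 as its log2 fold change (SE; edgeR's quasi-likelihood test, adjusted p = 0.0487). The call was lost when mouse 308, 309, 311, 314, 315 or 319 was left out (log2 fold change 1.65 to 2.57 over all omissions, adjusted p at most 0.169). It was also lost with robust estimation, another scaling or a stricter filter (adjusted p 0.0518 to 0.0697). Of the 6 adipocyte markers, Lep was at 0 in every mouse and Adipoq, Plin1 and Retn did not pass the filter, the highest value among the 3 being 0.39 CPM. The list's summed level was 297 to 530 CPM in AAV8-GFP and 411 to 557 CPM in AAV8-AGXT mice, nearly all of it from Cidec and Cidea, lipid droplet genes that fatty hepatocytes also express. Cidea stood at 171, 32.9, 37.5 and 57.8 CPM in the controls and at 196, 145, 114 and 131 CPM in AGXT mice, so that mouse 303 was the highest control for Cidea as well as for Cfd. Among AGXT mice the order differed, with Cfd highest in mouse 319 and Cidea highest in mouse 308. Of the adipocyte markers tested, 2 had positive fold changes with TMM, and 1 was positive and 1 negative with total counts.

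The remaining genes of the alternative pathway did not pass the test. Cfb, which encodes factor B, was scarce at 1.87 to 3.87 CPM in the controls and 1.17 to 5.57 CPM in AGXT mice (log2 fold change 0.19, adjusted p = 0.824), and total counts turned this to -0.035. The annotation places 79.5% of its exonic bases also in Gm20547 on the same strand, so that read pairs there may have been tallied as ambiguous and its level may be a lower limit. Cfp, the gene of properdin, which stabilizes the convertase and comes mostly from leukocytes, differed by -0.07 (adjusted p = 0.911).

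The beta chain of C8 was the called gene of the terminal pathway. C8 joins the alpha, beta and gamma chains, encoded by C8a, C8b and C8g, and binds to C5b, C6 and C7 on a membrane to open the way for C9. C8b (ENSMUSG00000029656, chr4:104766317-104804548, plus strand) stood at 138, 113, 67.3 and 150 CPM in AAV8-GFP mice and at 236, 261, 171 and 293 CPM in AAV8-AGXT mice. Every AGXT mouse lay above every control. C8b rose 2.05-fold, from 117 ± 36.7 to 240 ± 51.5 CPM (± SD of 4 mice, log2 fold change 1.04 ± 0.25 SE, edgeR's quasi-likelihood test, adjusted p = 0.0489). The call was lost without mouse 303, 308, 309, 311, 314 or 319 (adjusted p at most 0.165), under every other scaling tried and with the stricter filter (adjusted p 0.0519 to 0.0602). C8a and C8g had positive fold changes of 0.43 and 0.38 that did not pass (adjusted p = 0.229 and 0.26).

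Among the other terminal genes, Hc, which encodes C5 and is the most abundant of them by CPM, stood at 576, 736, 708 and 814 CPM in AAV8-GFP mice and 598, 790, 589 and 1152 CPM in AAV8-AGXT mice. The groups overlapped, mouse 319 alone lying above all controls. Its log2 fold change of 0.14 (adjusted p = 0.726) became -0.097 under total counts and -0.10 without mouse 319. C6, which follows C5b in the complex, differed by 0.48 (adjusted p = 0.187), and C9, the pore-forming protein, by -0.0094 (adjusted p = 0.986).

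The called coagulation proteases belong to the intrinsic and the extrinsic route. Factor XI is activated by factor XIIa or thrombin and then activates factor IX. F11 (ENSMUSG00000031645, chr8:45241174-45262031, minus strand) stood at 26.2, 30.5, 34.4 and 42.3 CPM in AAV8-GFP mice and at 77.6, 53.4, 50.6 and 56.2 CPM in AAV8-AGXT mice. The groups did not overlap, and mouse 308 was the highest. F11 rose from 33.3 ± 6.81 to 59.5 ± 12.3 CPM (± SD of 4 mice, log2 fold change 0.83 ± 0.18 SE, edgeR's quasi-likelihood test, adjusted p = 0.0376). It kept its call under all 8 alternative tests, scalings and filters. Leaving out mouse 303, 308, 311, 314 or 319 ended it, with an adjusted p of at most 0.137 and a log2 fold change of 0.67 without mouse 308.

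Factor VII binds tissue factor at a site of injury and then activates factors IX and X. F7 (ENSMUSG00000031443, chr8:13026034-13035809, plus strand) stood at 43.8, 47.2, 51.8 and 55.0 CPM in AAV8-GFP mice and at 85.7, 61.8, 72.7 and 111 CPM in AAV8-AGXT mice. The controls spanned a narrow range that lay wholly below the AGXT mice. F7 rose from 49.5 ± 4.97 to 82.9 ± 21.4 CPM (± SD of 4 mice, log2 fold change 0.75 ± 0.17 SE, edgeR's quasi-likelihood test, adjusted p = 0.0449). The call held without mouse 309 and was lost without each of the other mice (adjusted p at most 0.152), with total counts (0.0623) and with upper-quartile factors (0.052). Without mouse 311, 314 or 319 the fit called 2, 15 and 14 genes in all, so that the loss of calls in these fits was not particular to the members. Without mouse 309, 315 or 316 the fit called 643, 629 and 411 genes, yet members still lost calls. Cfd and C8b dropped out without mouse 309, Cfd and F7 without mouse 315, and F7 without mouse 316.

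**Figure D2:**
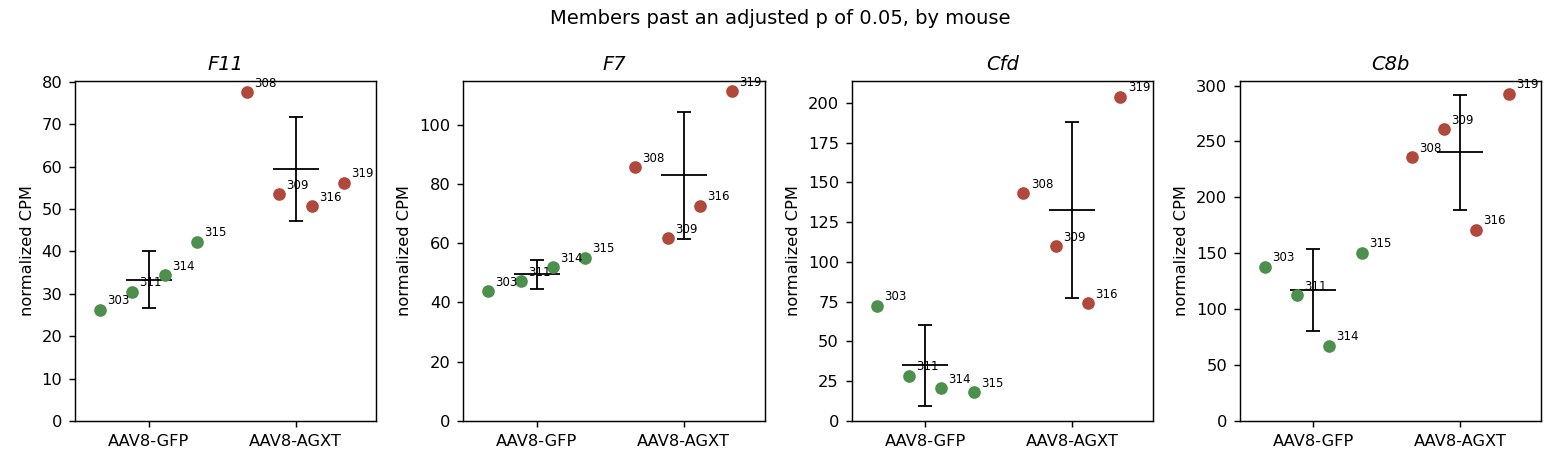
Normalized CPM of F11, F7, C8b and Cfd in each mouse (points labelled by mouse), with the group mean as a bar and the SD as its error (n = 4 each). In all 4 genes the AGXT mice lie above the controls, with the smallest distance for Cfd, where control mouse 303 had 72.6 and AGXT mouse 316 had 74.0 CPM.

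The sequence upstream of these 4 genes is shown because they are the members that rose. Each line gives the 250 bases before the RefSeq transcription start on GRCm38.p6, 5′ to 3′ on the gene's strand. Capitals mark matches on either strand to 4 short motifs. These are an HNF1 half-site (GTTAAT), the C/EBP core (GCAAT), a STAT element (TTCNNNGAA) and a TATA box (TATAAA). C8b holds the HNF1 letters at -206 to -201 and F7 the C/EBP core at -160 to -156, both on the opposite strand, whereas the windows of F11 and Cfd hold none of the 4.
C8b (chr4:104766067-104766316, plus strand): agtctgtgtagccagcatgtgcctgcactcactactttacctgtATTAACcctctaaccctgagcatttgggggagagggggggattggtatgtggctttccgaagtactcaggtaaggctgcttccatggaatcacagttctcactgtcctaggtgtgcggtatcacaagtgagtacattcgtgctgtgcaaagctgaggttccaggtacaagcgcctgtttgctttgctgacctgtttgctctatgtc
F7 (chr8:13025784-13026033, plus strand): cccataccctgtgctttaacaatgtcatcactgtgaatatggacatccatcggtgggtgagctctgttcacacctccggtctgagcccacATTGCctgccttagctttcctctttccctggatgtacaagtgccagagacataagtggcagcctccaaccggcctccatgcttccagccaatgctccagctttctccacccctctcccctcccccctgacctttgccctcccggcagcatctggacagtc
F11 (chr8:45262032-45262281, minus strand): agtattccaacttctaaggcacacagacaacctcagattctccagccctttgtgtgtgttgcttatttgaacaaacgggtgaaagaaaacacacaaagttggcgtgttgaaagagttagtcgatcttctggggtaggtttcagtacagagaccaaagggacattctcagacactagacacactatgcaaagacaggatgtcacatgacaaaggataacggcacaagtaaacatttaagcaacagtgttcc
Cfd (chr10:79890603-79890852, plus strand): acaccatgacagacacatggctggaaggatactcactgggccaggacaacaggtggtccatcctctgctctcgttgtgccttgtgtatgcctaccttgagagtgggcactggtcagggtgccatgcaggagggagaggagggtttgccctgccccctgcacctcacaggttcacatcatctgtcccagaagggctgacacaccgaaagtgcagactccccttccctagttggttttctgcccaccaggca

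RefSeq windows were matched for 35 members. The HNF1 half-site occurred in 10 of them (28.6%), beside 6.43% of 32851 promoter windows of the same length: C1ra, C4bp, C8a, C8b, Cfp, F13b, Fga, Fgb, Hc and Proz. The STAT element occurred in 6 (17.1% beside 7.02%), namely C8a, F9, Fga, Fgb, Masp2 and Pros1. The C/EBP core occurred in 7 of the 35, beside 23.1% of all windows, and the TATA box in 2 (5.71% beside 12.4%). These are matches of letters, and factor binding was not measured. Windows were not used here for Cfb, Cfi, Proc, Masp1, C2, Plg, C4b, Kng1 and C1qa.

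The classical pathway held fold changes of both signs, none past the test. C1q, which recognizes bound antibody, has its A, B and C chains encoded by C1qa, C1qb and C1qc within 18.7 kb of chromosome 4. C1qa was at 130 to 210 CPM in AAV8-GFP mice and 53.1 to 155 CPM in AAV8-AGXT mice, and the fold changes of the 3 chains were -0.65, -0.69 and -0.63. None of the 5 classical genes passed edgeR's quasi-likelihood test or DESeq2, and 2 had an unadjusted p under 0.05 (beside 26.2% of all genes). For C1qa, C1qb and C1qc edgeR gave adjusted p = 0.186, 0.207 and 0.242 (unadjusted p = 0.0474 for C1qa). The proteases that C1q activates are made by hepatocytes. C1ra stood at 158, 148, 150 and 176 CPM in the controls and at 178, 190, 183 and 231 CPM in AGXT mice, without overlap between the groups. Its log2 fold change of 0.31 had an adjusted p of 0.143. C1s1 stood at 245, 246, 257 and 282 CPM and at 217, 285, 255 and 265 CPM, and the groups overlapped throughout (log2 fold change -0.012, adjusted p = 0.963). The paralogs C1rb and C1s2 are close in sequence, so that assignment of reads between them and these genes is uncertain.

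Because C1q in the liver comes mainly from macrophages, its level was set beside markers of these cells. The mean log2 CPM of the 3 C1q genes differed by -0.76 between AAV8-AGXT and AAV8-GFP mice (two-sided exact permutation test over 70 arrangements, p = 0.0857, smallest possible 0.0286). For 10 macrophage markers the difference was -1.04 (exact permutation p = 0.0571). Of these markers 9 had negative fold changes and 0 passed edgeR's quasi-likelihood test. An unadjusted p under 0.05 was reached by 5 of the markers (beside 26.2% of all genes), and 4 passed with DESeq2 (beside 12.4%). Their sums were 732 to 1220 CPM in the controls and 190 to 812 CPM in AGXT mice. The C1q level minus the macrophage level was 1.37 ± 0.10 in the controls and 1.64 ± 0.38 in AGXT mice (SD, n = 4 each), a difference of 0.27 (exact permutation p = 0.314). With Kupffer cell markers, which label resident macrophages and of which 6 of 7 had positive fold changes (5 of 7 under total counts), the same difference was -1.51 (exact permutation p = 0.0286, the smallest possible). Marco and Timd4 had the largest fold changes of that list (3.63 and 2.49, adjusted p = 0.0801 and 0.0736), and Marco stood at 156 CPM in mouse 319 and at most 12.4 CPM in the others. The other 5 markers lay between -0.022 and 0.45. Without these 2 genes, a choice made after their values were seen, the difference was -0.88 (exact permutation p = 0.0286). The median fold changes of the macrophage and Kupffer lists thus had opposite signs (-0.93 and 0.29). Under total counts they were -1.14 and 0.050, and no Kupffer cell marker passed edgeR's quasi-likelihood test. In bulk tissue, fewer cells of a type and less RNA per cell cannot be told apart.

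**Figure D3:**
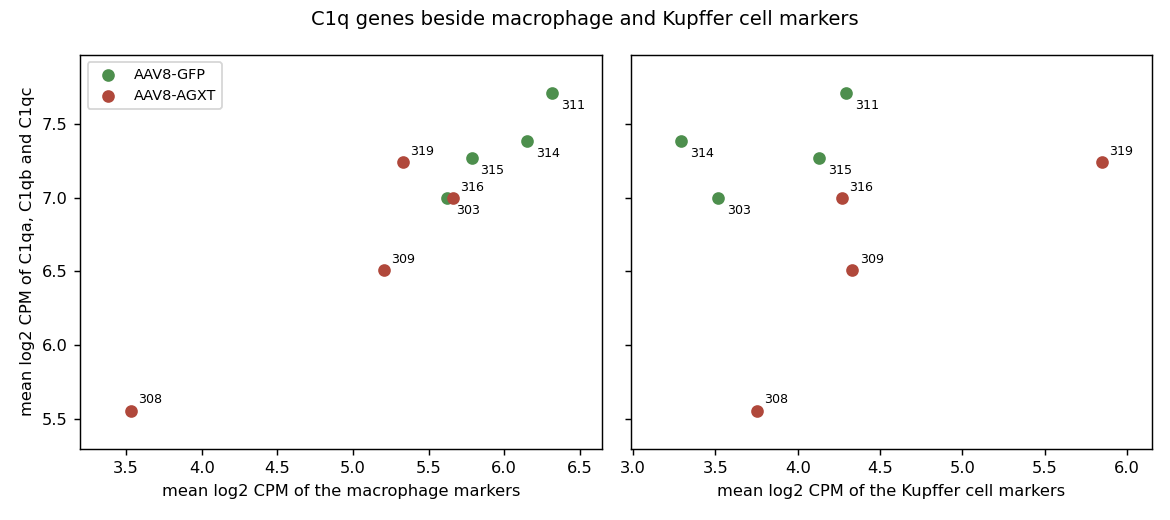
Mean log2 CPM of C1qa, C1qb and C1qc against the mean log2 CPM of 10 macrophage markers (left) and of 7 Kupffer cell markers (right), with 1 point per mouse, coloured by group. Mouse 308 lies lowest for C1q (5.56) and for the macrophage markers (3.53), and mouse 319 lies highest for the Kupffer cell markers (5.85).

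In the lectin pathway, 3 of 4 genes had positive fold changes, each with an unadjusted p under 0.05, and 0 passed the adjusted test. Over all genes tested, 52.3% of fold changes were positive and 26.2% of genes had an unadjusted p under 0.05. Masp1 encodes a protease that mannose-binding lectin carries to microbial surfaces. It stood at 12.4, 13.2, 18.8 and 18.8 CPM in AAV8-GFP mice and at 20.3, 35.8, 24.2 and 36.3 CPM in AAV8-AGXT mice. The groups did not overlap, and the log2 fold change of 0.89 fell just short in edgeR's quasi-likelihood test (adjusted p = 0.053), whereas it passed with DESeq2 (adjusted p = 0.00646), with no filter (0.0306) and without mouse 308 (0.0493). Masp2, which cleaves C4 and C2, differed by 0.46 (adjusted p = 0.0828; 0.0318 with DESeq2), and Tardbp lies on its opposite strand. The mannose-binding lectins differed from each other in sign. Mbl1 had a fold change of 0.38 (adjusted p = 0.154), whereas Mbl2 stood at 232, 290, 280 and 477 CPM in the controls and 213, 267, 265 and 271 CPM in AGXT mice. Mouse 315 was far above the other controls for Mbl2, and the groups overlapped (log2 fold change -0.33, adjusted p = 0.347).

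C3, the hub on which all routes meet, was the most abundant complement gene per kilobase of exon, at 870.0 CPM per kilobase in AAV8-GFP livers. It stood at 3656, 4293, 5652 and 4296 CPM in the controls and at 4036, 5896, 4509 and 9396 CPM in AGXT mice. The groups overlapped, and mouse 319 alone lay well above the rest. The log2 fold change was 0.41 (adjusted p = 0.36), and 0.11 without mouse 319. C4b, which forms the classical convertase with C2, differed by 0.21 (adjusted p = 0.664), by -0.032 under total counts and by -0.16 without mouse 319. C2 differed by -0.16 (adjusted p = 0.528) and shares 42.8% of its exonic bases with Gm20547, so its level may be a lower limit too. C4b reads may also be shared with its near copy C4a.

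The fluid-phase regulators keep C3 and C4 turnover in check. C4bp, the C4b-binding protein, stood at 440, 454, 582 and 494 CPM in AAV8-GFP mice and at 516, 571, 523 and 827 CPM in AAV8-AGXT mice. Mouse 319 was the highest and the groups overlapped (log2 fold change 0.31, adjusted p = 0.304). Cfi, the gene of factor I, which degrades C3b and C4b, differed by 0.27 (adjusted p = 0.438).

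Fibrinogen was the most abundant product of the list, with Fgg, Fga and Fgb holding the top 3 places per kilobase of exon in AAV8-GFP livers (1175, 1059 and 932 CPM per kilobase). Its gamma, alpha and beta chains are encoded side by side within 42.1 kb of chromosome 3 and are joined before secretion. Fgb stood at 2899, 3037, 4960 and 3305 CPM in the controls and at 3073, 4332, 2491 and 6685 CPM in AGXT mice. Mouse 319 was the highest and mouse 316 the lowest of all 8, both in the AGXT group. The fold changes were 0.14 for Fga, 0.22 for Fgb and 0.16 for Fgg, none past the test (adjusted p = 0.833, 0.685 and 0.773), and all 3 turned negative under total counts (-0.098, -0.024 and -0.087) and without mouse 319 (-0.18, -0.10 and -0.13). Fibrinogen made up 31.1 ± 4.62% of the members' counts in AAV8-GFP and 28.6 ± 4.84% in AAV8-AGXT mice (SD, n = 4 each; exact permutation p = 0.486).

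The upstream windows of the fibrinogen genes are shown because these genes lie side by side and are the most abundant members per kilobase in AAV8-GFP livers. Fga holds an HNF1 half-site at -43 to -38 and a STAT element at -234 to -226, and Fgb holds matches to the same motifs at -29 to -24 and -162 to -154, whereas the Fgg window holds none of the 4 motifs.
Fga (chr3:83025903-83026152, plus strand): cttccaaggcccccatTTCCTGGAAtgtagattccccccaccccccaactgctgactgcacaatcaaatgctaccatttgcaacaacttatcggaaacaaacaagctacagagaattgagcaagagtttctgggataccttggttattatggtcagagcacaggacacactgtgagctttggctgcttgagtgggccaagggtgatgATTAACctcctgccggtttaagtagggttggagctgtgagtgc
Fgb (chr3:83049864-83050113, minus strand): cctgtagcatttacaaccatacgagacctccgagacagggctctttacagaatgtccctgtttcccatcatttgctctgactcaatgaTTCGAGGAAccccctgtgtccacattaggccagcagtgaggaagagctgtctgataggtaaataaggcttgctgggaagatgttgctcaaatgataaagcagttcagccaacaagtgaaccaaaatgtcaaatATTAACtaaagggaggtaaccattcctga
Fgg (chr3:83007474-83007723, plus strand): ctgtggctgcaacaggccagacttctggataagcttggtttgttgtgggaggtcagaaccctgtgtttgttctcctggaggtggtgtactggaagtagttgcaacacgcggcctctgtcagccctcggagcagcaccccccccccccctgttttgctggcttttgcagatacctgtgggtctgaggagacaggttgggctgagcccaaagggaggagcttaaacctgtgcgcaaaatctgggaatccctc

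**Figure D4:**
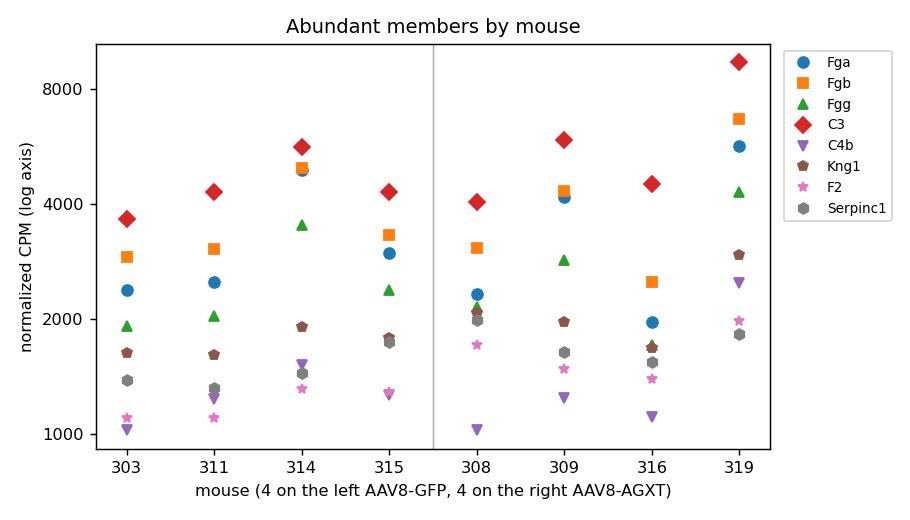
Normalized CPM (log axis) of 8 abundant members in each mouse, with the 4 AAV8-GFP mice left of the line and the 4 AAV8-AGXT mice right of it. The fibrinogen genes and C3 peak in mouse 314 among the controls and in mouse 319 among the AGXT mice, where Fgb reached 6685 CPM.

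Levels per kilobase were compared within each mouse to see whether chains of one protein and neighbouring genes kept their proportions. The ratio of Fgg to Fgb stayed between 1.17 and 1.31 over the 8 mice, a 1.12-fold range, while Fgg itself varied 2.51-fold. The ratio of Fga to Fgb was looser, between 0.955 and 1.25 (1.31-fold), while Fga varied 2.88-fold. The ratio of C1qc to C1qb stayed between 0.532 and 0.599 (1.13-fold), while C1qc varied 4.62-fold, and that of C1qa to C1qb between 1.02 and 1.25 (1.23-fold), while C1qa varied 3.96-fold. For fibrinogen and C1q the ratios thus varied less than the levels. The same held for every other ratio given here, so it was not particular to these proteins. Masp1 and Masp2 lie on different chromosomes, and their ratio varied 2.31-fold while Masp1 varied 2.94-fold. The ratio of C8b to C8a, genes 11.1 kb apart in opposite directions, was 0.327 ± 0.0901 in AAV8-GFP and 0.507 ± 0.0487 in AAV8-AGXT mice (SD, n = 4 each), without overlap, and varied 2.63-fold over all mice. For C8g to C8a it spanned 1.05 to 2.14 (2.03-fold), with overlap. F7, F10 and Proz lie in tandem on chromosome 8. The ratio of F7 to F10 was 0.249 ± 0.0130 and 0.316 ± 0.0348 (SD, n = 4 each), without overlap, whereas that of Proz to F10 overlapped (0.394 to 0.531, 1.35-fold). C3 and C4b are neither chains of one protein nor neighbours, and the same holds for Masp1 and Masp2. The ratio of C3 to C4b was 3.93 ± 0.152 in the controls and 4.59 ± 0.462 in AGXT mice, without overlap. By themselves, C3 and C4b each overlapped between the groups. How often ratios of other gene pairs separate was not tested, so this separation is not read as a result. The ratio of Masp1 to Masp2 spanned 0.0339 to 0.0783 (2.31-fold), with overlap. The numerators C8b and F7 were called genes without overlap themselves, so the separation of their ratios is not a separate result. Ratios within a mouse do not depend on the scaling, and no test was applied to them because the pairs were viewed with the fold changes known.

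**Figure D5:**
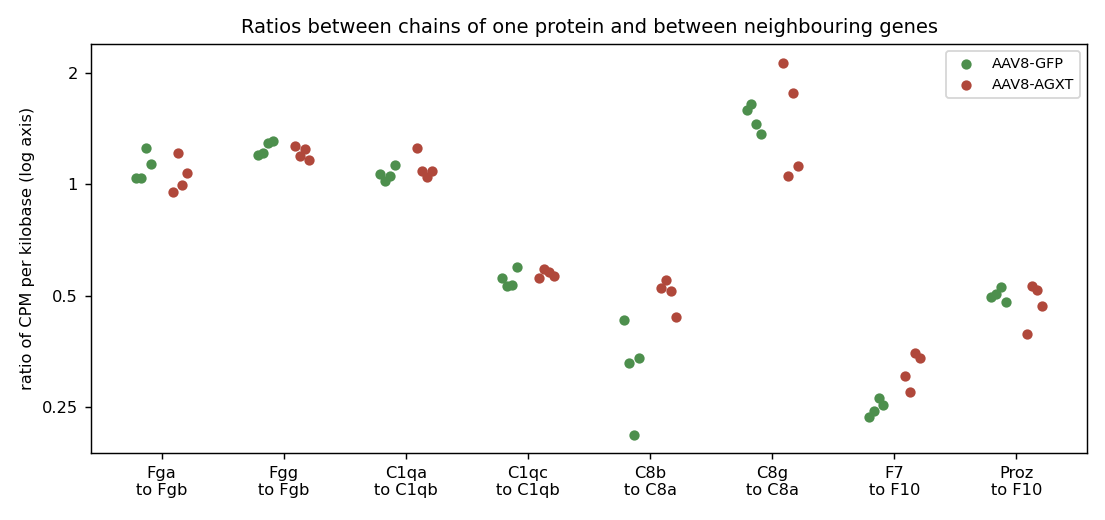
Ratios of CPM per kilobase (log axis) between chains of one protein and between neighbouring genes, with 1 point per mouse, coloured by group. Fgg to Fgb (1.17 to 1.31) and C1qc to C1qb (0.532 to 0.599) span the narrowest ranges, Fga to Fgb (0.955 to 1.25) and C1qa to C1qb (1.02 to 1.25) wider ones, and C8b to C8a and F7 to F10 lie higher in the AGXT mice than in the controls without overlap.

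All 4 genes of the contact system had positive fold changes (beside 52.3% of all genes), with F11 the called one. Kng1, the gene of the kininogen from which bradykinin is cut, was the most abundant, at 1626, 1610, 1904 and 1782 CPM in AAV8-GFP mice and 2071, 1965, 1679 and 2942 CPM in AAV8-AGXT mice. Mouse 316 fell within the range of the controls, so the groups overlapped (log2 fold change 0.32, adjusted p = 0.292). Reads of its near copy Kng2 may be mixed with it. F12, the gene of factor XII, which starts the contact system, differed by 0.29 (adjusted p = 0.213). Klkb1, which encodes plasma prekallikrein and lies 4.66 kb from F11, differed by 0.45 (adjusted p = 0.129) and shares 43.2% of its exonic bases with Gm45753 on the same strand, so its level may be a lower limit. The ratio of F11 to F12 per kilobase was 0.0571 ± 0.00878 in the controls and 0.0841 ± 0.0135 in AGXT mice (SD, n = 4 each), without overlap, as for F11 itself.

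All 6 factors of the extrinsic and common pathway had positive fold changes and 3 of them, F7, F2 and F13b, had no overlap between groups. Over all genes tested, 52.3% of fold changes were positive. Of all genes, 16.6% had no overlap in either direction and 8.93% had none with AAV8-AGXT higher. F2 encodes prothrombin and stood at 1101, 1096, 1308 and 1282 CPM in AAV8-GFP mice and at 1706, 1479, 1394 and 1974 CPM in AAV8-AGXT mice. Every control lay below every AGXT mouse, and the log2 fold change of 0.45 had an adjusted p of 0.102 in edgeR's quasi-likelihood test and 0.0229 with DESeq2. F13b, which carries the fibrin-crosslinking factor XIII, differed by 0.53 (adjusted p = 0.0623; 0.0135 with DESeq2). F10 and F5, which encode the protease and the cofactor of prothrombinase, differed by 0.40 and 0.37 (adjusted p = 0.148 and 0.153). F9, the gene deficient in haemophilia B, differed by 0.17 (adjusted p = 0.451) and by -0.061 under total counts.

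The anticoagulants shared the positive sign without a call. Proc encodes protein C, which inactivates factors Va and VIIIa, and stood at 495, 530, 460 and 603 CPM in AAV8-GFP mice and 817, 526, 585 and 700 CPM in AAV8-AGXT mice. The groups overlapped (log2 fold change 0.33, adjusted p = 0.231). Proz encodes protein Z, a cofactor for inhibition of factor Xa, and stood at 277, 293, 309 and 313 CPM and at 333, 358, 322 and 460 CPM. Its groups did not overlap, and the log2 fold change of 0.30 had an adjusted p of 0.193. Pros1, the cofactor of protein C, differed by 0.07 (adjusted p = 0.795) and by -0.17 under total counts.

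Neither serpin that inhibits thrombin passed the test, and both had positive fold changes. Serpinc1 encodes antithrombin and stood at 1377, 1315, 1438 and 1738 CPM in AAV8-GFP mice and 1982, 1637, 1536 and 1821 CPM in AAV8-AGXT mice. Mouse 315 was the control that overlapped the AGXT mice (log2 fold change 0.25, adjusted p = 0.309), and Zbtb37 lies on the opposite strand. Serpind1, which encodes heparin cofactor II, stood at 145, 197, 225 and 259 CPM and at 275, 274, 214 and 345 CPM. Mouse 316 lay within the controls (log2 fold change 0.42, adjusted p = 0.208).

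In fibrinolysis, Plg, the gene of plasminogen, stood at 1259, 1388, 1697 and 1591 CPM in AAV8-GFP mice and at 1831, 2046, 1647 and 2594 CPM in AAV8-AGXT mice. Only mouse 316 lay within the range of the controls (log2 fold change 0.45, adjusted p = 0.143). Its inhibitor Serpinf2, alpha-2-antiplasmin, differed by 0.25 (adjusted p = 0.468). Cpb2, a carboxypeptidase that slows clot lysis, differed by 0.11 (adjusted p = 0.761) and by -0.13 under total counts.

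The mice of a group differed in a way that many members shared. Mouse 319 was the highest of the AGXT mice for 33 of the 44 genes, with a median log2 level 0.69 above the mean of the controls, and mouse 316 was the lowest for 23, with a median of 0.071 above it. Among the controls, mouse 303 was the lowest for 26 genes. Without mouse 319 the median fold change of the members was 0.18, beside 0.026 over all genes, and 29 were positive. Without mouse 308 the members' median was 0.33, beside -0.014 over all genes, and 39 were positive. As a share of all counts on genes, the members took 2.69, 3.02, 3.86 and 3.05% in AAV8-GFP mice and 2.45, 3.43, 2.63 and 4.44% in AAV8-AGXT mice. These shares overlapped, with means of 3.16 ± 0.497% and 3.24 ± 0.904% (SD, n = 4 each; exact permutation p = 0.914).

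Genes outside the members were read from lists of these pathways and from a list of 12 hepatocyte transcription factors. Of these 68 genes, 62 passed the filter. With edgeR 2 were higher and 3 lower in AAV8-AGXT mice, which is 8.06% of those tested, beside 4.35% of all genes. Colec10, the gene of a liver collectin that activates the lectin pathway, rose from 6.65 ± 1.69 to 12.8 ± 2.61 CPM (± SD of 4 mice, log2 fold change 0.94, adjusted p = 0.045). Cebpa, a transcription factor of hepatocytes, rose from 353 ± 16.8 to 499 ± 39.2 CPM (± SD of 4 mice, log2 fold change 0.50, adjusted p = 0.0429), with Gm45091 on its opposite strand. The 3 genes that fell act at cell surfaces and are not products of hepatocytes alone. Plau, the gene of urokinase, a plasminogen activator, fell from 6.54 ± 1.61 to 2.58 ± 1.28 CPM (± SD of 4 mice, log2 fold change -1.34, adjusted p = 0.0496). Anxa2, which binds plasminogen and its activators on cells, fell from 252 ± 42.4 to 103 ± 32.6 CPM (± SD of 4 mice, log2 fold change -1.29, adjusted p = 0.0294), with Gm16144 on its opposite strand. Gas6, a vitamin K-dependent ligand of TAM receptors, stood at 174, 181, 245 and 140 CPM in the controls and 59.0, 101, 105 and 119 CPM in AGXT mice, without overlap, and fell by 0.94 on the log2 scale (adjusted p = 0.0495), with Tmem255b on its opposite strand. Scaled by total counts, the log2 fold changes were 0.72 for Colec10, 0.26 for Cebpa, -1.55 for Plau, -1.50 for Anxa2 and -1.17 for Gas6.

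The lists as a whole differed in sign. In the list of coagulation and fibrinolysis genes outside the members 16 of 21 tested genes had negative fold changes (median -0.30; 18 of 21 and -0.54 with total counts), in the vitamin K cycle list all 5 were positive (median 0.17) with TMM and all 5 negative (median -0.067) with total counts, and in the list of hepatocyte transcription factors all 12 were positive (median 0.45; 11 and 0.20 with total counts). The complement regulators and receptors had 9 positive and 9 negative (median -0.012; 3 and 15 with total counts), and of the 6 other complement proteins tested 4 were positive. Markers of other cells are given beside these. Stellate cell and fibroblast markers summed to 481 to 861 CPM in AAV8-GFP and 237 to 577 CPM in AAV8-AGXT mice (5 of 7 negative), and cholangiocyte markers to 225 to 673 and 74.1 to 272 CPM (5 of 5 negative). Neutrophil markers were negative in 4 of 4 tested genes, T and B cell markers in 4 of 5, sinusoidal endothelial markers in 0 of 6 (2 of 6 with total counts) and platelet markers in 1 of 3 (2 of 3 with total counts). Across these 6 marker lists 30 genes entered the fit, of which 0 passed edgeR's quasi-likelihood test, 13 had an unadjusted p under 0.05 (43.3%, beside 26.2% of all genes) and 9 passed with DESeq2 (beside 12.4% of all genes). The part of cell composition in the members' fold changes was not tested.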

How the data were processed

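The authors sequenced stranded, paired-end mRNA libraries of liver, 1 for each mouse, and the labels assign 4 mice to each treatment. The deposited counts are raw read pairs per Ensembl gene, which the authors made with FastQC 0.11.8, Trimmomatic 0.35, HISAT2 2.1.0.13 and HTSeq on GRCm38 with Ensembl release 90. The strand option and overlap mode of the counting are not given in the sources used here. Tallies of unassigned read pairs stayed out of all sums, and read pairs counted on genes made up 56.3 to 69.1% of all tallies.

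Counts were tested in R 4.3.3 with edgeR 4.0.16 (filterByExpr, TMM, glmQLFit and glmQLFTest) with treatment as the only term and all 8 mice. Calls required an adjusted p under 0.05 (Benjamini-Hochberg). Fold changes used a prior count of 0.125 and log2 CPM a prior count of 2. Exact permutation tests were two-sided over the 70 arrangements of the mice. The study itself tested with DESeq2, which was an alternative here (version 1.42.0), beside limma-voom (limma 3.58.1), robust estimation, other scalings and filters, and each mouse left out in turn. At this depth the spread between mice (common biological coefficient of variation 23.3%) sets the precision.

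Annotation was taken from GENCODE M21 on the same build. Promoter windows were taken from RefSeq on GRCm38.p6. Each motif was searched on both strands of the 250 bases before the start. Values in every mouse are given for called members and, in each role, for the member with the smallest p and the most abundant one. Outside the members, called genes of the pathway lists are named. The members and lists were chosen with earlier results of these data known.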

Additional observations from a re-analysis of the deposited data

Results flagged for a closer look

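In each group of 4 mice the highest and the lowest value of every member were compared with the next one, and a gap above Dixon's 95% critical value was noted. This held for 5 of 88 groups, where chance alone gives about 1 in 20, and all 5 were AAV8-AGXT mice. Mouse 319 was the highest for C4b, at 2474 CPM beside 1242 for the next mouse, and for Serpinf2, at 800.1 beside 505 CPM. Mouse 308 was the lowest for Mbl2, at 213 beside 265 CPM, and for Pros1, at 63.4 beside 78.4 CPM. Mouse 309 was the highest for C6, at 548 beside 371 CPM. None of these 5 genes passed edgeR's quasi-likelihood test (adjusted p between 0.187 and 0.795).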

How the results depend on the processing

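The number of called members, 4 with edgeR and TMM, was 8 with DESeq2 (18.2%, beside 12.4% of the 16749 genes with an adjusted p in that test), 2 with DESeq2's size factors, 1 with total counts, 1 with upper-quartile factors and 2 with at least 10 counts in every mouse. It ranged from 0 to 3 when each mouse was left out, with 0 without mouse 311, 314 or 319. Genes called over the whole table fell from 664 to 2 without mouse 311, 15 without mouse 314 and 14 without mouse 319. They were 177 without mouse 308, 193 without mouse 303, 411 without mouse 316, 629 without mouse 315 and 643 without mouse 309. With DESeq2 they were 2078 and with total counts 1001. Of the calls, 374 of 664 were higher (56.3%) with TMM, 144 of 1001 (14.4%) with total counts and 1054 of 2078 (50.7%) with DESeq2. Total counts also lowered the median of the members to 0.065, of the lectin genes to 0.17, the contact system to 0.14, the extrinsic and common factors to 0.18, the protein C and Z group to 0.065 and the serpins to 0.095, through a shift that all genes shared. The protein C and Z median ranged from 0.18 to 0.37 with each mouse left out.

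Under total counts the sign turned for C4b (-0.032), Cfb (-0.035), Hc (-0.097), Fga (-0.098), Fgb (-0.024), Fgg (-0.087), F9 (-0.061), Pros1 (-0.17) and Cpb2 (-0.13). With each mouse left out, the fold change crossed 0 for C1s1 (-0.086 to 0.046), C4b (-0.16 to 0.34), Cfb (-0.21 to 0.45), Cfp (-0.46 to 0.10), Hc (-0.10 to 0.26), C9 (-0.18 to 0.14), Fga (-0.18 to 0.41), Fgb (-0.10 to 0.41), Fgg (-0.13 to 0.36) and Cpb2 (-0.10 to 0.23). None of these genes was called. The C1q level per macrophage markers was 0.27 and per Kupffer cell markers -1.51 (exact permutation p = 0.0286), -0.88 for these without Marco and Timd4 (chosen after seeing the data, exact permutation p = 0.0286) and 0.13 without Itgax and Trem2. No paired analysis was possible because mouse numbers are not shared between the groups. Depth was least for Cfb, with 17 counts in its lowest library, and every other member had at least 294.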
